A study of Mus musculus with 11 samples.

Results

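A set of 10 genes of the Notch pathway and its neuronal repressor arm were followed in KP1 cells, a mouse small cell lung cancer (SCLC) line with mutations in *Rb* and *p53*, before and after irradiation. They were taken by name: the ligand genes *Dll1*, *Dll3*, *Dll4* and *Jag2*, the receptor genes *Notch1* and *Notch2*, the transcriptional regulators *Hes1*, *Hes6* and *Hey1*, and *Rest*. They stand among 35127 genes in the files and all 10 were among the 14114 genes that passed the filter on low counts. The measurements are bulk RNA sequencing of 2 untreated cultures, labelled replicates 2 and 3, and of 3 irradiated cultures, labelled replicates 1, 2 and 3. All cells grew in RPMI-1640 medium, and the irradiated cells were collected 24 h after 5 Gy. Every library comes from the same cell line, and the labels do not say whether the cultures were grown apart, so the p values measure the spread between these libraries, which may be technical. Another 6 of the 11 samples of the series, leukocytes from tumors, were not analysed here.

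In Notch signaling, a ligand on one cell binds a receptor on its neighbor, the receptor is cut by proteases, and its freed intracellular part enters the nucleus and switches on genes such as *Hes1* and *Hey1*. The products of those genes are repressors that hold back neuronal and neuroendocrine programs. In neuroendocrine SCLC the ligands and inhibitors of the pathway are commonly expressed, and cells with active Notch lose neuroendocrine traits. REST is a repressor that keeps neuronal genes silent outside the nervous system and is one of the genes Notch can induce in SCLC.

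The libraries held 21185956 to 31036317 reads as estimated by Salmon. The neuroendocrine label was checked with *Insm1*, which encodes a neuroendocrine zinc-finger factor and had 11636 to 23461 reads per library. Its log2 fold change of irradiated over control cells was 0.54 (adjusted p = 0.149 from edgeR with Benjamini-Hochberg adjustment over all genes tested). Of 8 leukocyte markers 5 had at most 3 reads in every library, and their summed level was 4.55 to 7.03 TPM in control and 1.21 to 1.62 TPM in irradiated libraries, where TPM is an abundance per transcript length scaled within a library. The summed level of 8 endothelial markers was 12.1 to 15.1 TPM in control and 8.07 to 11.3 TPM in irradiated libraries. Most of it was *Tek*, at 9.428 and 11.003 TPM in control and 7.472, 7.244 and 10.268 TPM in irradiated libraries. The 8 fibroblast markers summed to 66.3 to 82.6 TPM in control and 46.4 to 59.0 TPM in irradiated libraries. Most of this was *Pdgfra*, at 53.7 and 56.7 TPM in control and 36.6, 51.7 and 46.9 TPM in irradiated libraries. The fibroblast markers *Col3a1* and *Dcn* had 0 reads and at most 3 reads in every library. The 10 genes of non-neuroendocrine SCLC summed to 26.7 to 28.5 TPM in control and 22.4 to 34.5 TPM in irradiated libraries. The 4 epithelial markers summed to 11.3 to 18.6 TPM in control and 24.8 to 58.5 TPM in irradiated libraries, with the highest sum in irradiated replicate 1. The part of these markers in the results on Notch genes was not tested. Weighted by reads, the sampled transcripts averaged 5463 and 4729 bases in length in the controls, but only 3715, 3625 and 3998 bases in the irradiated libraries, and the median main transcript of all genes tested measured 2981 bases. Values are therefore also given from a fit with an offset that removes each library's trend with transcript length.

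In control cells each of the 4 ligand genes lay above both receptor genes of the set by TPM. In control cells, *Hes6* had the highest TPM of the 10 genes, followed by *Dll3*, *Jag2*, *Dll1*, *Dll4*, *Notch2*, *Hey1*, *Hes1*, *Notch1* and *Rest*. The ranges of the 2 control libraries overlapped for *Jag2* and *Dll1* and for *Notch2* and *Hey1*, so neither neighbor can be placed above the other. All other neighbors were apart by gene TPM. The places of *Jag2*, *Dll1*, *Dll4* and *Hes1* depended on short transcripts. By main transcript Dll4-201 had 16.4 and 15.6 TPM in control, above Jag2-201 at 14.1 and 14.0, and Dll1-201 had 12.1 and 15.9. Hes1-201, at 0 and 0.65 TPM in control, overlapped with Notch1-201, at 0.21 and 0.38 TPM. In irradiated cells *Hes6* and *Dll3* again led and *Notch1* and *Rest* again closed the order. *Notch2* moved from place 6 to place 8, but its range overlapped with that of *Hes1*. By main transcript Notch2-201, at 1.65, 1.45 and 2.24 TPM, was above Hes1-201, at 1.07, 0.41 and 1.42 TPM, in each irradiated library. The ranges of *Jag2*, *Dll4* and *Dll1* overlapped from each to the next in irradiated cells, as did those of *Hey1* and *Hes1*.

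**Figure D1:**
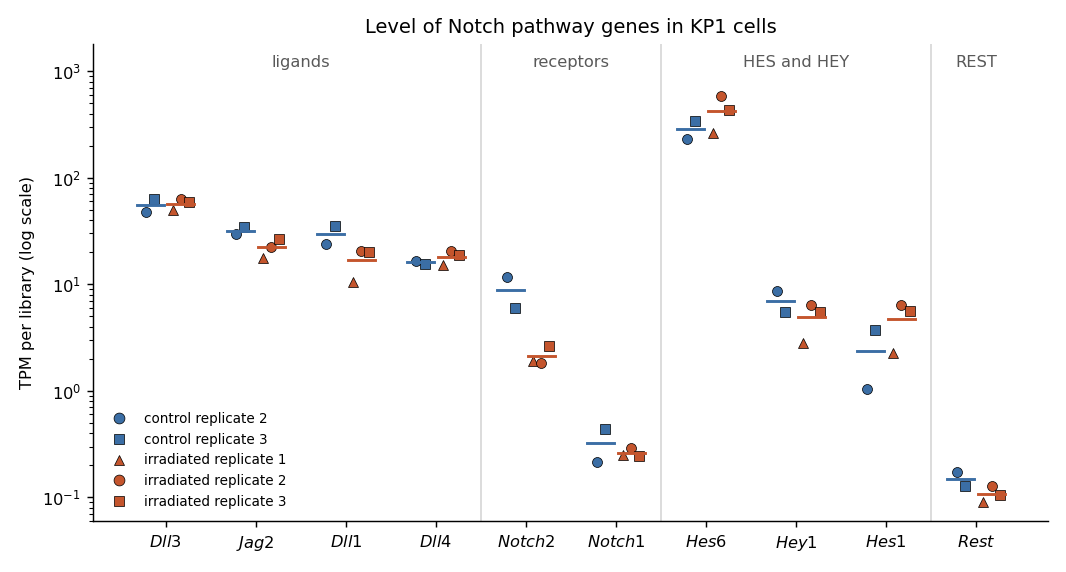
TPM of each gene (vertical log axis) in each library, with control libraries in blue, irradiated libraries in orange and a bar at the group mean. *Hes6* lies above 228 TPM in every library, *Notch1* and *Rest* lie below 0.5 TPM, and for *Notch2* all 3 irradiated libraries sit below both controls.

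After irradiation, *Notch2* was the only one of the 10 genes whose expression changed at an adjusted p under 0.05, and it fell. None of the 10 rose at that threshold by edgeR, and 1 gene rose at an unadjusted p under 0.05 (*Hes6*). Among all genes tested, 12.7% rose and 13.0% fell at the same threshold, so 1 of 10 lower and 0 of 10 higher are near or below the background. *Notch2* was also the 1 gene past the thresholds of the study, a log2 fold change beyond 1.5 in either direction with an adjusted p under 0.05, which 1.90% of all genes passed in the downward direction. The median log2 fold change was 0.09 over the 10 genes and 0.02 over all genes tested. By CPM (counts scaled to library size with the TMM factors of edgeR), the irradiated libraries lay above both controls for *Dll3*, *Dll4*, *Jag2* and *Hes1* and below both for *Notch2*, and the groups overlapped for the other 5 genes. Such a separation was seen upward in 30.1% and downward in 29.3% of all genes tested.

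**Figure D2:**
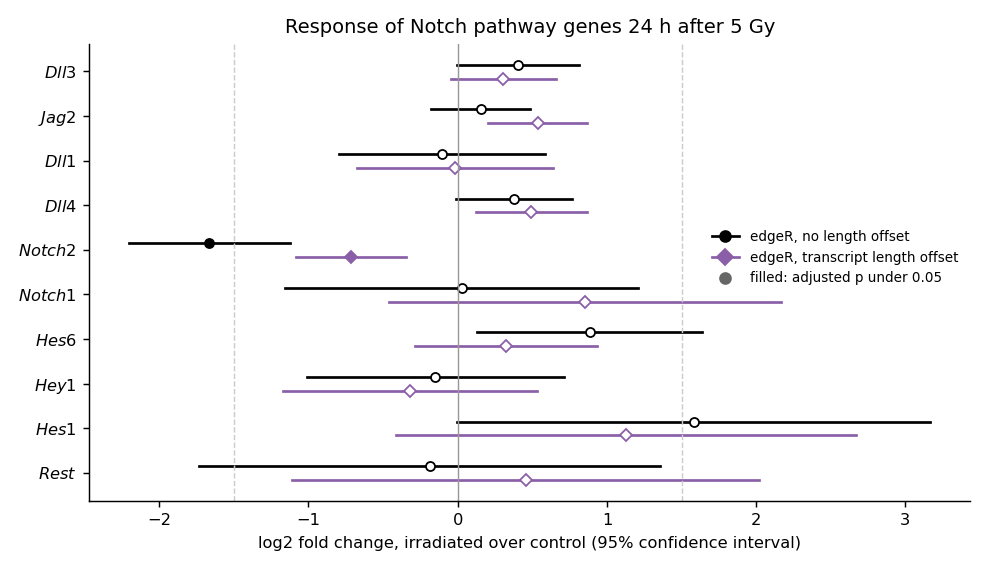
Log2 fold change of irradiated over control cells for each gene (horizontal axis) with its 95% confidence interval, from edgeR without (black circles) and with (purple diamonds) an offset for transcript length. Dashed lines mark a log2 fold change of 1.5 in either direction, and the filled symbols, at −1.66 and −0.71 for *Notch2*, are the values with an adjusted p under 0.05.

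*Notch2*, on chromosome 3 of GRCm38 from 98013527 to 98150361, encodes a receptor and had the higher level of the 2 receptor genes of the set in every library. It had 1349 and 829 reads in control replicates 2 and 3 and 288, 236 and 407 reads in irradiated replicates 1, 2 and 3. In CPM these were 47.2 and 31.1 in control and 11.5, 10.8 and 14.8 in irradiated libraries. Every irradiated library was below both controls, and the lower control was above the highest irradiated library by more than the range of the 3 irradiated libraries. Control cells averaged 39.2 ± 11.4 CPM (SD, n = 2) and irradiated cells 12.4 ± 2.16 CPM (SD, n = 3). *Notch2* had a log2 fold change of −1.66 with a standard error of 0.23 (adjusted p = 0.0087 by edgeR). This is a 3.17-fold lower level, with a 95% confidence interval of 2.18-fold to 4.60-fold. In bulk RNA, fewer cells that express *Notch2* and less *Notch2* RNA per cell cannot be told apart. In TPM, which takes transcript length into account, it had 11.7 and 6.05 in control and 1.92, 1.84 and 2.63 in irradiated libraries.

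The size of the *Notch2* decrease depended on how transcript length was treated. Its main transcript, Notch2-201, measures 10500 bases, over 3 times the median of the genes tested, and the irradiated libraries held fewer reads from long transcripts. With the transcript length offset, the log2 fold change of *Notch2* was −0.71 (95% confidence interval −1.08 to −0.35, adjusted p = 0.0456 from edgeR), no longer past the thresholds of the study. With that offset 2.08% of all genes tested fell and 2.86% rose at an adjusted p under 0.05, and no other of the 10 genes was called. Whether RNA quality or a change in the cells set the length trend was not tested. Blocking on replicate numbers gave −1.60 (adjusted p = 0.0186 from edgeR), and combining this block with the offset gave −0.67 (adjusted p = 0.21 from edgeR). Without control replicate 2, which had the highest level, it was −1.31 and so within the thresholds of the study.

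Notch2-201 carried 95.1% of the *Notch2* reads in control and 97.0% in irradiated libraries. It had 1251 and 820 estimated reads in control and 281, 226 and 396 in irradiated libraries. The remaining isoform, the retained-intron transcript Notch2-202 of 1896 bases, had 97.9 estimated reads in control replicate 2 and 7.1 to 10.8 in the other libraries. Since a read on a short transcript weighs more in TPM, Notch2-202 made up 24.1% of the *Notch2* TPM in control. At the level of single transcripts, 0 of 40716 transcripts tested passed an adjusted p of 0.05 by edgeR (0%), while 8453 had an unadjusted p under 0.05. Of 49 transcripts of the 10 genes, 20 were tested and 5 had an unadjusted p under 0.05, with Notch2-201 at a log2 fold change of −1.41 (adjusted p = 0.0892 from edgeR).

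*Notch1*, on chromosome 2 from 26457903 to 26516663, encodes the receptor best known from T cell leukemia and was close to the limit of measurement. It had 31 and 53 reads in control and 38, 41 and 36 reads in irradiated libraries. The groups overlapped, and the log2 fold change was 0.03 (95% confidence interval −1.16 to 1.21, adjusted p = 0.975 from edgeR). A change of up to about 2-fold in either direction was thus not excluded at this depth. With 0.21 and 0.44 TPM in control, *Notch1* lay far below *Notch2* in every library.

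Of the 4 ligand genes of the set, *Dll3* had the highest TPM in every library. *Dll3*, on chromosome 7 from 28293553 to 28302238, encodes an unusual ligand that stays mostly inside the cell and acts as an inhibitor of Notch. It had 1636 and 1919 reads in control and 1867, 2160 and 2297 in irradiated libraries, which in CPM were 57.3 and 72.0 against 74.3, 98.6 and 83.6. All irradiated libraries were above both controls, but irradiated replicate 1 exceeded control replicate 3 by little. The log2 fold change of 0.40 (95% confidence interval −0.01 to 0.82) did not pass the test (adjusted p = 0.128 from edgeR), and in TPM the groups overlapped, at 48.1 and 63.5 against 49.5, 63.2 and 59.0.

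*Dll1*, *Dll4* and *Jag2* encode ligands that activate the receptor on a neighboring cell. *Dll4*, on chromosome 2 from 119325784 to 119335962, had 893 and 768 reads in control and 874, 972 and 1035 in irradiated libraries. In CPM these were 31.3 and 28.8 against 34.8, 44.4 and 37.7, with every irradiated library above both controls. *Dll4* had a log2 fold change of 0.37 (95% confidence interval −0.01 to 0.76, adjusted p = 0.133 from edgeR). *Dll4* was thus close to *Dll3* in its estimate, and neither passed the test.

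*Jag2*, on chromosome 12 from 112907819 to 112929776, had 1163 and 1078 reads in control and 1198, 988 and 1171 in irradiated libraries. In CPM these were 40.7 and 40.4 against 47.7, 45.1 and 42.6, and the log2 fold change was 0.15 (95% confidence interval −0.18 to 0.49, adjusted p = 0.458 from edgeR). The direction of *Jag2* turned with the scale, because in TPM the irradiated libraries, at 17.7, 22.4 and 26.6, were all below the controls, at 29.6 and 34.3, and the log2 fold change on log2(TPM + 0.5) was −0.53 (adjusted p = 0.130 from limma). That scale moved the median log2 fold change of all genes to −0.27. The full-length transcript Jag2-201 held 90.2% of the *Jag2* reads but 43.9% of its TPM in control, and the remainder of the TPM came from transcripts of 406 to 1092 bases, whose values rest on few reads. Jag2-201 itself had 14.1 and 14.0 TPM in control and 14.7, 12.6 and 12.8 TPM in irradiated libraries, so the lower gene TPM lay in the short transcripts. With the length offset the log2 fold change was 0.54 (adjusted p = 0.0665 from edgeR).

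*Dll1*, on chromosome 17 from 15367354 to 15376872, had 1 irradiated library well below the other two. It had 713 and 875 reads in control and 406, 731 and 850 in irradiated libraries, or 25.0 and 32.8 CPM against 16.2, 33.4 and 30.9. Irradiated replicate 1 was the lowest of all 5 libraries, while irradiated replicates 2 and 3 lay within or just above the control range. Its log2 fold change of −0.11 (95% confidence interval −0.80 to 0.58, adjusted p = 0.820 from edgeR) turned to 0.16 without irradiated replicate 1 (adjusted p = 0.609 from edgeR). In TPM the irradiated libraries were all below the controls, at 10.4, 20.4 and 20.0 against 23.9 and 35.4. Dll1-201, with 86.4% of the *Dll1* reads in control, overlapped between the groups. It had 12.1 and 15.9 TPM in control and 6.96, 13.6 and 14.1 TPM in irradiated libraries, so the groups were apart only with the short transcripts included.

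*Hes6*, on chromosome 1 from 91411483 to 91414038, was the most abundant of the 10 messages. HES6 differs from other HES proteins in that it opposes HES1 and favors neuronal differentiation. It had 229 and 339 TPM in control and 265, 579 and 434 TPM in irradiated libraries, and 467 genes had a higher mean TPM in control cells. The reads were 3916 and 5260 in control and 4796, 9599 and 8146 in irradiated libraries, or 137 and 197 CPM against 191, 438 and 297. Irradiated replicates 2 and 3 were above both controls, but irradiated replicate 1 lay between them. Controls averaged 167 ± 42.6 CPM (SD, n = 2) and irradiated libraries 309 ± 124 CPM (SD, n = 3). The log2 fold change of 0.88 (95% confidence interval 0.13 to 1.64) did not pass the threshold (adjusted p = 0.0794 from edgeR). Without irradiated replicate 1 the log2 fold change was 1.14 (adjusted p = 0.0445 from edgeR), and DESeq2 called it with all libraries at 0.88 (adjusted p = 0.0167). The length offset lowered it to 0.32 (adjusted p = 0.463 from edgeR).

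The main transcript Hes6-201 carried 74.0% of the *Hes6* reads in control and 75.9% in irradiated libraries, and the retained-intron transcript Hes6-202 carried most of the rest, at 25.5% and 23.6%. The proportion of the retained-intron form thus moved little, and its reads ranged from 764 to 2638 over the 5 libraries. Neither transcript passed the adjusted threshold.

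**Figure D3:**
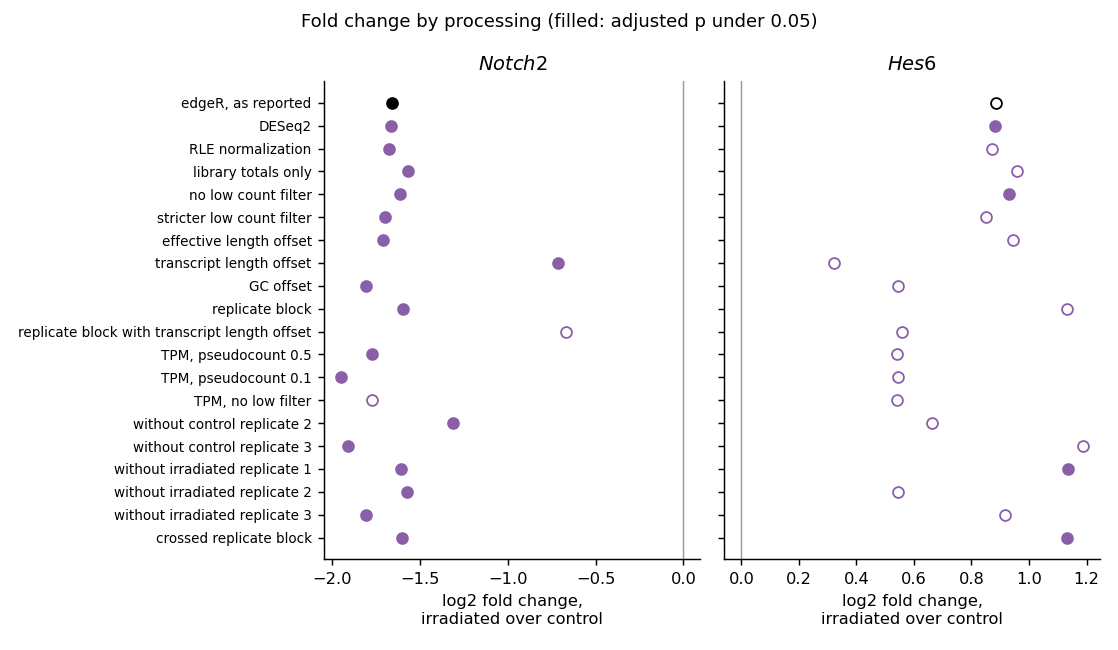
Log2 fold change of irradiated over control cells (horizontal axes) for *Notch2* and *Hes6* under each way of processing (rows), with filled circles where the adjusted p was under 0.05. *Notch2* stayed below 0 in every row, from −1.95 to −0.67, and *Hes6* stayed above 0, from 0.32 to 1.19.

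*Hes1*, on chromosome 16 from 30064384 to 30067796, is the classical direct target of Notch and was barely expressed. It had 6 and 14 reads in control and 28, 21 and 34 reads in irradiated libraries. Every irradiated library was above both controls, at 0.96 to 1.24 CPM against 0.21 and 0.53 CPM. The log2 fold change was 1.58, the largest upward estimate of the 10 genes, but its 95% confidence interval ran from −0.01 to 3.17 and it did not pass the test (adjusted p = 0.123 from edgeR). In TPM the groups overlapped, at 1.03 and 3.73 against 2.26, 6.40 and 5.62, since a few reads on the short transcript Hes1-202 of 344 bases made up 64.6% of the TPM in control.

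*Hey1*, on chromosome 3 from 8663359 to 8667256, encodes another repressor that Notch induces directly. It had 251 and 166 reads in control and 99, 201 and 198 reads in irradiated libraries, or 8.79 and 6.23 CPM against 3.94, 9.18 and 7.21. Irradiated replicate 1 was again the lowest of the 5 libraries, as for *Dll1*, and the groups overlapped. *Hey1* had a log2 fold change of −0.15 (95% confidence interval −1.01 to 0.71, adjusted p = 0.798 from edgeR), and 0.12 without irradiated replicate 1 (adjusted p = 0.794 from edgeR). *Hes1* and *Hey1*, both induced by Notch, thus had estimates of opposite sign with intervals that overlapped, and the difference between them was not tested.

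*Rest*, on chromosome 5 from 77265491 to 77286432, had the lowest level of the 10 genes. It had 18 and 12 reads in control and 10, 13 and 12 reads in irradiated libraries, above the floor of 3 reads but at no more than 0.17 TPM. All of them were assigned to Rest-202, of 6924 bases. The groups overlapped, and the log2 fold change was −0.19 (95% confidence interval −1.73 to 1.36, adjusted p = 0.863 from edgeR). At this depth the interval does not exclude changes somewhat beyond 2-fold in either direction.

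The upstream sequences of *Hes6* and *Notch2* are shown because their products act on opposite sides of the pathway and were the genes with the highest and the most changed message. The E-box CAGCTG is a site of basic helix-loop-helix activators, and the N-box CACNAG one of HES proteins. Windows of 250 bases before to 50 bases after a RefSeq gene start on GRCm38.p6 covered 7 of the 10 genes with 9 windows. CAGCTG, which reads the same on both strands, was present in 4 of the 9 windows, of 3 genes (*Hes6* in both of its windows, *Dll3* and *Dll1* in one of its windows), against 16.3% of all 32851 windows. CACNAG, on either strand, was in 5 of 9 windows, against 42.5% of all windows. TGGGAA on either strand, the core of the site of the Notch effector RBPJ, was in 0 of 9 windows, against 25.6% of all. These matches are letters in a window and not sites of binding. The sequences below run 5′ to 3′ on the strand of the gene, with CAGCTG and CACNAG (read as CTNGTG on the other strand) in capitals. The last letters of CAGCTG can also open CTNGTG, so the motifs may overlap.
Hes6, chr1:91413223-91413472, minus strand, 250 bases before the start of Hes6-201: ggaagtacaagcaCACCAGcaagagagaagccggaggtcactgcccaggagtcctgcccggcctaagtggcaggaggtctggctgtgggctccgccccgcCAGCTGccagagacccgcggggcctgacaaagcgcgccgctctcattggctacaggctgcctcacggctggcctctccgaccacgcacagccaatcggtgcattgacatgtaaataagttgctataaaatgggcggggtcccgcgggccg
Notch2, chr3:98013288-98013537, plus strand, 250 bases before the RefSeq start: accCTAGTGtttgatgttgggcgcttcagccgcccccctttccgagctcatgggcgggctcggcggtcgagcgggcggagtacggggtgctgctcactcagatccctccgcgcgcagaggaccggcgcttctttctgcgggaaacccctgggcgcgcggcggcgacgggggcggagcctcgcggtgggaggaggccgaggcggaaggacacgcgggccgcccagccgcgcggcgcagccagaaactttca
Dll3, chr7:28301775-28301804, minus strand, 30 bases around its CAGCTG: tccggcatccagCAGCTGcgactcctgaga
Dll1, chr17:15377047-15377076, minus strand, 30 bases around its CAGCTG: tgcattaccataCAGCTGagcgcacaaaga
The *Hes6* E-box starts 150 bases before the start, and the *Notch2* stretch holds no CAGCTG and 1 match to the N-box, on the other strand. The *Dll3* E-box starts 7 bases before the RefSeq start and lies inside the first exon of Dll3-201 in GENCODE, which begins further upstream.

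The wider pathway was described with 9 lists of 90 genes, of which 81 were tested. At an adjusted p under 0.05, 7 rose and 16 fell, beside the 12.7% and 13.0% of all genes, and 0 passed the thresholds of the study. With the length offset 1 rose and 1 fell, near the 2.86% and 2.08% of all genes called with that offset. Without irradiated replicate 1, 4 rose and 12 fell, but the share of all genes called in that fit was not counted. The counts also rested on which control was kept when the other was left out.

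**Figure D4:**
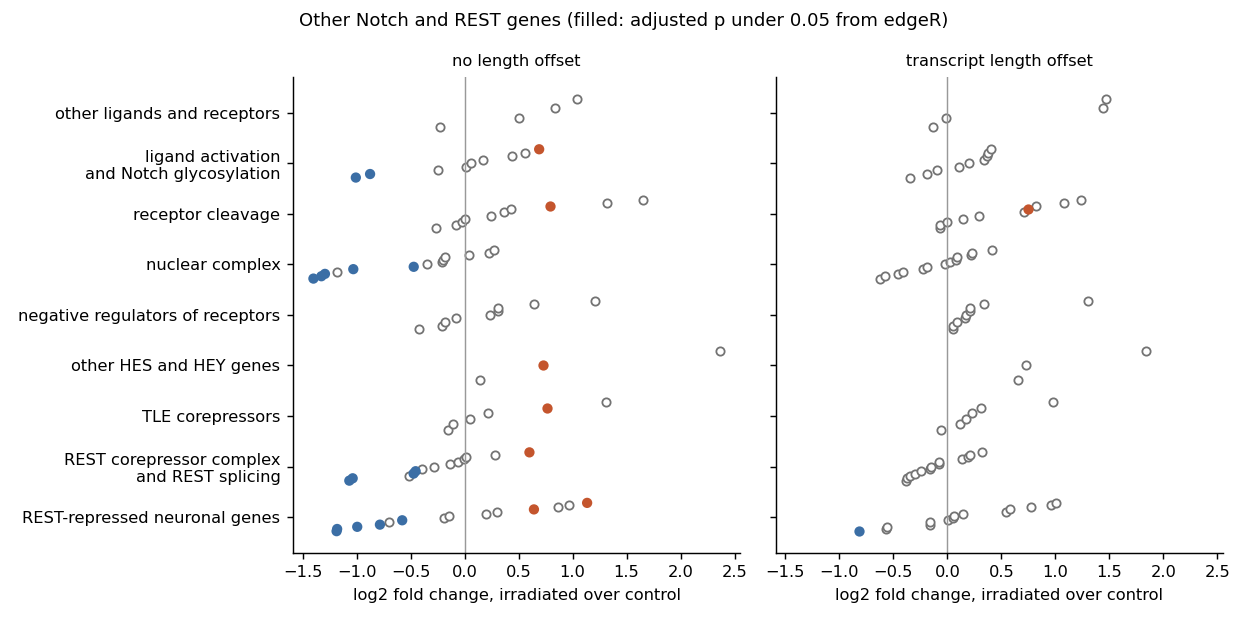
Log2 fold change of irradiated over control cells (horizontal axes) for each tested gene of the 9 lists (rows), without and with the transcript length offset. Filled points, orange for higher and blue for lower, have an adjusted p under 0.05 from edgeR and number 7 and 16 in the left panel and 1 and 1 in the right panel.

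Of 6 other ligand and receptor genes, 4 were tested and none rose or fell at the threshold (edgeR), beside 12.7% and 13.0% of all genes. *Notch3* had 0 reads in both controls and at most 4 in irradiated libraries. *Notch4*, a receptor of blood vessels, had 61 and 62 reads in control and 107, 104 and 82 in irradiated libraries, all above the controls, with a log2 fold change of 0.84 (adjusted p = 0.134 from edgeR). By TPM *Notch4* was above *Notch2* in every irradiated library, at 3.48, 5.78 and 6.52. By reads it was below *Notch2*, which had 288, 236 and 407 in these libraries. The TPM of *Notch4* did not follow its reads, since the nearly equal control reads gave 0.62 and 3.79 TPM. The order of these receptor genes after irradiation is therefore uncertain. *Dner*, which encodes a neuronal Notch ligand, had 132 and 139 TPM in control, above *Dll3*, and a log2 fold change of −0.23 (adjusted p = 0.334 from edgeR). *Jag1*, which encodes an activating ligand, had 23 and 136 reads in control and 135 to 173 in irradiated libraries, and its 2 controls differed more from each other than control replicate 3 did from the irradiated libraries. None of these genes was therefore shown to change, in either direction.

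Among the 9 genes that activate ligands or attach sugars to the receptor, 1 rose and 2 fell, beside 12.7% and 13.0% of all genes. *Mib1*, whose product marks ligands with ubiquitin so that they can signal, had 8049 and 6868 reads in control and 3235, 2771 and 4045 in irradiated libraries. All irradiated libraries were below the controls, and it fell by 1.01 on the log2 scale (adjusted p = 0.0089 from edgeR). *Neurl1b*, encoding another ubiquitin ligase for ligands, fell by 0.88 (adjusted p = 0.0256 from edgeR). *Mfng*, encoding a Fringe enzyme that adds a sugar to Notch and so shifts its choice of ligand, rose by 0.69 (adjusted p = 0.0132 from edgeR). The *Mib1* transcript measures 10231 bases, and with the length offset its log2 fold change was −0.10 (adjusted p = 0.665 from edgeR).

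Of the 10 genes for the proteases that cut the receptor, 1 rose and none fell, beside 12.7% and 13.0% of all genes. *Aph1a*, a subunit of γ-secretase, had 1356 and 1551 reads in control and 2298, 2168 and 2317 in irradiated libraries, with no overlap. It rose by 0.79 (adjusted p = 0.0132 from edgeR), and by 0.75 with the length offset (adjusted p = 0.0341 from edgeR), the 1 gene of these lists that rose in both fits.

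Of 13 genes of the nuclear complex, which turns the freed receptor into transcription, none rose and 5 fell, beside 12.7% and 13.0% of all genes tested. *Ep300*, a histone acetyltransferase of the active complex, had 6546 and 5051 reads in control and 2155, 1593 and 2525 in irradiated libraries and fell by 1.33 on the log2 scale (adjusted p = 0.0083 from edgeR). The corepressor genes *Spen* and *Ncor1*, whose products silence targets when Notch is off, fell, with log2 fold changes of −1.29 and −1.03 (adjusted p = 0.0111 and 0.0131 from edgeR). *Maml1*, a coactivator of the complex, fell by 0.47 (adjusted p = 0.0379 from edgeR). The other 8 genes of the list did not pass the test in either direction. The main transcripts of this list had a median length of 5528 bases, and with the length offset, under which 2.86% of all genes rose and 2.08% fell, none of the 13 was called and the median log2 fold change of the list went from −0.35 to −0.03.

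None of the 9 negative regulators of the receptors rose or fell at the threshold (edgeR), beside 12.7% and 13.0% of all genes. *Numb*, which encodes an inhibitor that takes Notch out of the membrane, had 312 and 341 reads in control, 1490 in irradiated replicate 1 and 257 and 299 in irradiated replicates 2 and 3. Its level was high in that 1 library. Without irradiated replicate 1 the log2 fold change of *Numb* was −0.07 (adjusted p = 0.858 from edgeR).

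Of 9 other HES, HEY and related genes, 3 were tested, 1 rose and none fell, beside 12.7% and 13.0% of all genes. *Hes2*, *Hes3*, *Heyl* and *Helt* had 0 to 2 reads in every library, below the floor of 3 reads. *Hes5*, a Notch target of neural progenitors, had 0 and 10 reads in control and 18, 34 and 18 in irradiated libraries, with a log2 fold change of 2.36 (adjusted p = 0.160 from edgeR). As with *Hes1*, all irradiated libraries were above the controls, and the test was not passed. *Bhlhe40*, a stress-responsive repressor related to the HES proteins, rose by 0.73 (adjusted p = 0.0468 from edgeR). Of 6 genes of the TLE corepressor family, 1 rose and none fell, beside the same shares of all genes. It was *Tle5*, which encodes a short TLE protein and is named *Aes* in the annotation. *Tle5* rose by 0.76 (adjusted p = 0.0138 from edgeR), and by 0.23 with the length offset (adjusted p = 0.304 from edgeR).

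Although *Rest* itself was near the limit of measurement, the genes around it were well expressed. Of 13 genes of its corepressor complex and of its splicing, 1 rose and 4 fell, beside 12.7% and 13.0% of all genes tested. *Srrm4*, which encodes a neural splicing factor that turns the *Rest* transcript into an inactive form, had 4435 and 3413 reads in control and 1525, 1407 and 2137 in irradiated libraries and fell by 1.07 (adjusted p = 0.0092 from edgeR). The scaffold gene *Sin3a* fell by 0.47 (adjusted p = 0.0437 from edgeR). *Ehmt1*, encoding a histone methyltransferase, fell by 0.45, and *Hdac1*, encoding a histone deacetylase, rose by 0.60 (adjusted p = 0.0487 and 0.0328 from edgeR). None of the 13 was called with the length offset, under which 2.86% of all genes rose and 2.08% fell. With that offset *Srrm4* had a log2 fold change of −0.38 (adjusted p = 0.101 from edgeR).

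Of 15 neuronal genes that REST represses, 14 were tested, 2 rose and 5 fell, beside 12.7% and 13.0% of all genes tested. *Gria2*, a glutamate receptor subunit, had 1772 and 2261 reads in control and 981, 781 and 985 in irradiated libraries. It fell by 0.99 on the log2 scale (adjusted p = 0.0096 from edgeR) and by 0.81 with the length offset (adjusted p = 0.0358 from edgeR), the 1 gene of these lists that fell in both fits. *Celsr3*, a cadherin receptor of growing axons, and *Bsn* and *Unc13a*, which encode proteins of the presynaptic active zone, fell, with log2 fold changes of −1.19, −1.18 and −0.78 (adjusted p = 0.0092, 0.0111 and 0.0131 from edgeR). Their transcripts measure 10255 to 15938 bases, and with the length offset their log2 fold changes were −0.16, 0.06 and 0.14. *Syn1* fell by 0.58, and *Scg2* and *Syp*, genes of secretory granules and synaptic vesicles, rose by 1.13 and 0.64 (adjusted p = 0.0417, 0.0212 and 0.0316 from edgeR). None of these last 3 genes kept its call under the length offset (adjusted p = 0.083, 0.0595 and 0.0793 from edgeR). The other 7 genes tested did not pass the test without the offset. The median log2 fold change of the list was −0.16, beside 0.02 over all genes, and 0.06 with the length offset, beside 0.05 over all genes. *Stmn2*, a neuronal microtubule regulator, had 0 reads in every library.

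Across the 5 libraries, the genes whose log2 CPM was most like that of *Notch2* were *Soga3*, *Helz* and *Rgs9*, with Pearson r of 0.99968, 0.99966 and 0.99961 over the 5 libraries. These libraries share the difference between the groups, and the closest of 14114 genes to any one gene will reach a high r over 5 points. The log2 fold changes of these genes were −0.80, −1.29 and −0.96, each smaller in size than that of *Notch2*.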

How the data were processed

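Groups were taken from the sample labels (2 control and 3 irradiated KP1 libraries). The authors quantified reads with Salmon (version 0.8.2 per the submitters' processing notes) at default settings on mm10, and deposited expected counts (estimated reads per transcript, unscaled), TPM (per effective length, scaled within a library) and transcript lengths. The annotation release and strandedness are not given in the sources used here. The authors used DESeq2 (1.22.2).

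Here, 112841 of 113116 transcripts (99.90% to 99.92% of a library's reads) matched GENCODE M21, and estimated counts were summed per gene and rounded. Genes were tested with edgeR 4.0.16 in R 4.3.3 (filterByExpr, TMM, quasi-likelihood test, Benjamini-Hochberg over 14114 genes, no block). The length offset is a length spline (5 degrees of freedom) fitted per library and removes any such trend, technical or biological. TPM were tested on log2(TPM + 0.5) with limma 3.58.1, which understates changes of low genes. Confidence intervals are at 95%, and the floor of 3 reads covers counting error only. With 2 against 3 libraries an exact two-sided permutation test of a single gene cannot go below p = 0.1.

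The alternatives were DESeq2 1.42.0, other scalings, filters and offsets, TPM, the replicate block, and each library left out. The numbers 2 and 3 occur in both groups, and no source says that they mark a shared culture. In simulated counts, 200 genes were shifted by 2 on the log2 scale. This is larger than any estimate for the 10 Notch genes with all libraries kept and without block or offset. Without control replicate 3 the estimate of *Hes1* was 2.39. Of the 200 shifted genes, edgeR recovered 200, with 10 false calls (13918 genes tested). Recovery of smaller shifts was not tested, nor that of genes with as few reads as *Notch1*, *Hes1* and *Rest*. With a simulated length trend edgeR recovered 193 with 2132 false calls, and with the offset 200 with 14 (14134 genes). The offset is built to remove a trend with length, so its use on other trends was not tested.

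The genes and lists were chosen with earlier results of these data known. Some results that this rule would name are not reported here. Named are all 10 genes, up to 4 called genes per list with the smallest p, genes at 0 to 3 reads, *Insm1*, and the 3 genes most like *Notch2*. *Notch3*, *Notch4*, *Dner*, *Jag1*, *Hes5*, *Maml1*, *Ehmt1*, *Syn1*, *Scg2*, *Syp*, *Numb*, *Pdgfra* and *Tek* were named after their values were seen. No near-identical copy (95% identity over 80% of the main transcript, blastn 2.17.0) was found for the 10 genes. Antisense genes overlap *Dll1*, *Dll4* and *Notch1*, and without known strand their reads cannot be told apart. On the same strand, *Gm42819* and *Gm42820* overlap the span of *Notch2* by 5121 and 3063 bases and were not quantified. Their part in the *Notch2* reads was not tested. Promoter windows are from RefSeq (GRCm38.p6). *Hes1*, *Hey1* and *Rest* had no window.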

Additional observations from a re-analysis of the deposited data

How the results depend on the processing

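Of 183 values of the 10 genes under an alternative, 154 kept their direction and their side of the threshold, 21 changed sign, 6 newly passed and 2 no longer passed. *Notch2* had an adjusted p under 0.05 in 17 of 19 alternatives (log2 fold change −1.95 to −0.67). The exceptions were the replicate block with the length offset (−0.67, adjusted p = 0.21 from edgeR) and TPM without a filter (−1.78, adjusted p = 0.061 from limma), where 0 of the 10 genes were lower. The count past the thresholds of the study was 0 with the length offset, also when joined to the block, and with TPM without a filter, and 0 to 1 when a library was left out (0 without control replicate 2). One gene was higher with DESeq2 and without the low count filter, and 0 to 1 when a library was left out, in each case *Hes6* (adjusted p = 0.0167, 0.00072 and 0.0445). Estimates that changed sign, none past the threshold, were those of *Dll1* (0.17 with the block, 0.24 with block and length offset, −0.29 to 0.16 with a library left out), *Hey1* (0.14 with the block, −0.43 to 0.14 with a library left out), *Jag2* (−0.18 with the effective length offset, −0.23 with the GC offset, −0.53, −0.54 and −0.53 in TPM with pseudocounts of 0.5 and 0.1 and without a filter), *Notch1* (−0.21 with the GC offset, −0.10 in TPM without a filter, −0.33 to 0.54 with a library left out) and *Rest* (0.46 with the length offset, 0.55 with block and length offset, −0.39 to 0.094 with a library left out). In the wider lists 1 gene rose and 1 fell with the length offset, 2 rose and 8 fell with the replicate block, and 0 to 15 rose and 3 to 14 fell with a library left out. The cause of these shifts was not tested. Apart from the length offset, the share of all genes called under an alternative was not counted.

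Number 2 minus number 3 correlated at −0.171 between the groups over 14114 genes. The read-weighted transcript length was 5463 and 4729 bases in control replicates 2 and 3. It was 3625 and 3998 bases in irradiated replicates 2 and 3, the opposite order. The correlation was not corrected for length, so whether the numbers mark shared cultures was not tested. With the replicate block *Notch2* was at −1.60 (adjusted p = 0.0186) and *Hes6* at 1.13 (adjusted p = 0.0508), and the block changed no other call among the 10 genes. With the numbers crossed, an alternative chosen after seeing the data, 3 genes were higher (*Hes6*, *Dll3* and *Dll4*) and 1 was lower (*Notch2*). *Dll1* and *Hey1* were then at 0.17 and 0.13. The share of all genes called with the numbers crossed was not counted. Leaving out a control leaves 1, which is assumed to vary like the others. Read counts under 60 limit *Notch1*, *Hes1* and *Rest*.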
